A study of Rattus norvegicus with 6 samples.

Results

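The 48 genes described here make up the Wnt pathway's cell-surface and feedback machinery as far as the tables of this series name it. They were chosen by symbol alone: every gene whose symbol begins as a numbered Wnt, Frizzled (Fzd), secreted Frizzled-related (Sfrp), Dickkopf (Dkk) or R-spondin (Rspo) gene, the receptors Lgr4 and Lgr5, and 12 single genes such as Axin2, Ctnnb1 and Wif1. Each library's table lists 15679 genes. Of the 48 members, 35 had enough reads to be tested and 13 did not. Znrf3, which the choice also names, has no row among those analysed here.

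The study compared pancreatic duct glands of pre-diabetic HIP rats with those of wild-type (WT) rats, both of the Sprague-Dawley strain. Duct glands are blind-ending epithelial pouches in the wall of the large pancreatic ducts. HIP rats express human islet amyloid polypeptide from a transgene with an insulin promoter, which is active in beta cells, and the human transcript was not analysed here. Glands were recognised by shape on stained sections, cut out by laser and sequenced as 3 HIP libraries (HIP30, HIP2 and HIP3) and 3 WT libraries (WT26, WT1 and WT4). The labels give no age and do not say whether a library came from 1 animal, so errors and p-values measure the spread between libraries, which may be technical. Values are given in these orders, as reads of a gene scaled to a common library total (CPM). CPM carries no gene length, so levels are compared between libraries and not between genes.

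Wnt proteins are secreted glycolipoproteins. Porcn attaches their lipid and Wls carries them to the cell surface. On the receiving cell they bind a Frizzled receptor, mostly together with Lrp5 or Lrp6, and this stops the Axin complex from marking beta-catenin (Ctnnb1) for destruction. Beta-catenin then acts with Lef1 and its relatives on target genes, among them the brakes Axin2, Notum and Rnf43. The E3 ligases Rnf43 and Znrf3 remove Frizzled from the surface, and R-spondins, bound to Lgr4 or Lgr5, block that removal. Sfrp, Frzb and Wif1 proteins bind Wnt itself, and Dkk proteins act at the co-receptors. These roles are known chiefly from mouse, frog and human work. In the intestine Lgr5 marks stem cells.

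The libraries held 15141136 to 17574682 reads on listed genes, which made 1 read equal to 0.0569 to 0.0660 CPM. Of the listed genes, 2440, 2155 and 1837 had no read in the HIP libraries, against 2822, 2488 and 672 in the WT libraries. WT4 thus missed the fewest genes, at 15821742 reads, and WT26 the most, at 17574682 reads. The cause of this difference in detection was not tested. All 8 duct epithelium markers found in the tables had reads in every library. Their summed level was 9809, 8327 and 10375 CPM in the HIP libraries, against 22646, 10908 and 8674 CPM in the WT libraries, with the highest sum in WT26. The fibroblast and stellate cell list, whose 13 markers were all found, summed to 734, 992 and 1955 CPM in the HIP libraries, against 1899, 2205 and 2543 CPM in the WT libraries. The list of 12 cell division genes summed to 107, 518 and 2911 CPM in the HIP libraries, against 2274, 3093 and 2161 CPM in the WT libraries, and 8 of these genes had no read in HIP30. In bulk tissue such as this, fewer cells of a type and less RNA per cell cannot be told apart.

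Promoter sequence is shown for the feedback gene Axin2 and for 3 members whose HIP and WT libraries did not overlap, Wif1, Wnt11 and Wnt2b, because a pathway readout and its secreted regulators can then be set side by side. Windows run from 250 bases before to 50 bases after the gene start and come from RefSeq, build GRCr8, while the submitters' processing notes name build rn5 for the reads. Each is written 5′ to 3′ as the table gives it. Capitals mark matches to the core recognised by the TCF and LEF factors, searched on both strands as the motif CTTTGAA, the motif CTTTGAT, the motif CTTTGTA and the motif CTTTGTT, without overlaps in these windows.
Axin2, chr10:94398535-94398834, plus strand: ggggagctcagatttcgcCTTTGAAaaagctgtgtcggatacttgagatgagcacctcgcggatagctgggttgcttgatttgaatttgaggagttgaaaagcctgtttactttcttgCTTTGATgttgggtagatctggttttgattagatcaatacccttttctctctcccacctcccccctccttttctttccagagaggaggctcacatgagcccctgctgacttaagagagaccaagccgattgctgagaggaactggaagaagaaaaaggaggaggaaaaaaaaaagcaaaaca
Wif1, chr7:58433329-58433628, plus strand: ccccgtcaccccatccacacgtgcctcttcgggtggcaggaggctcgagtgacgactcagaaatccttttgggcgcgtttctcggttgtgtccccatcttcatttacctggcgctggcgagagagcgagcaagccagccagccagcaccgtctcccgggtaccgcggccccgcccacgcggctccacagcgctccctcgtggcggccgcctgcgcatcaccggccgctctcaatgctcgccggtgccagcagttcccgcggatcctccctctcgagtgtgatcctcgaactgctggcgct
Wnt11, chr1:162549110-162549409, plus strand: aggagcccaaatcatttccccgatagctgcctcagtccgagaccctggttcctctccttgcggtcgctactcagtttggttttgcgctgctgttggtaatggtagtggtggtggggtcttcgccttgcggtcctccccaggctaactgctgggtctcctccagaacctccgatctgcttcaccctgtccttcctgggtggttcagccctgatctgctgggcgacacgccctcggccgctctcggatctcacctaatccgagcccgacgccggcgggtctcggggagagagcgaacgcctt
Wnt2b, chr2:195156896-195157195, minus strand: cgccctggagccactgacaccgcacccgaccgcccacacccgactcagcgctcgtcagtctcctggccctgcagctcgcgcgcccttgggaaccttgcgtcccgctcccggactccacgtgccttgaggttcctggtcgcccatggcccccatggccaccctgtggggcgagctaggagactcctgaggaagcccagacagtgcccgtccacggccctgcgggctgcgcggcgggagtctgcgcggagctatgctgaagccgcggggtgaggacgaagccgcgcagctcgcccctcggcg
Axin2 held 2 matches, at bases 19 to 25 and 119 to 125 of its window, and the other 3 windows held none. Of 32 members with a window in the table, 4 had a match (12.5%), and besides Axin2 these were Sfrp5, Wnt3 and Wnt8a. Among all 33469 windows of the same length 17.1% had at least 1 match and 2.12% had 2 or more. These shares were not adjusted for base composition. G and C made up 45.7% of the Axin2 window and 67.0%, 61.7% and 72.0% of the Wif1, Wnt11 and Wnt2b windows, beside a median of 51.7% over all windows. A match is a run of letters and not a measured binding site.

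No member passed the test between HIP and WT glands. Of 12102 genes tested with limma, 0 (0%) were higher and 0 (0%) lower in HIP at a Benjamini-Hochberg adjusted p under 0.05, and the smallest adjusted p among members was 0.691. What follows are therefore values and ranks, and none of the differences is a call. At an unadjusted p under 0.05 limma gave 4 members lower in HIP (Wif1, Wnt11, Dkk3 and Wnt5b), which is 11.4% of the 35 tested, where 3.26% of all genes tested were lower. It gave 1 member higher (Lgr5), or 2.86%, where 3.29% of all genes tested were higher. Wnt11 passed the filter on low values through its WT libraries alone, where it is high, and without it 3 of 34 members (8.82%) were lower. Of these Wnt5b was near the limit. Its unadjusted p by limma was 0.0495, against 0.0630 with library totals, 0.0614 with the deposited log2 values and 0.0446 with median of ratios. With library totals or the deposited values 3 members were lower, Wnt11 included. With limma-voom 6 members (17.1%), Wnt11 among them, came under the same limit, as did 7.55% of all genes, and again 0 passed after adjustment. With a library left out, the count of 5 became 2 without HIP2 (5.71%, beside 1.93% of genes) or without WT1 (5.71%, beside 2.71%). It became 3 without HIP30 (8.57%, beside 2.26%) and 6 without WT26 (17.1%, beside 2.79%). It became 8 (22.9%) without HIP3 or without WT4, where 14.9% and 13.3% of all genes came under the limit. The members counted changed with the library left out. Wif1 was under the limit each time, and Lgr5 only without WT4. The 6 without WT26 were Dkk2, Dkk3, Fzd1, Rspo3, Wif1 and Wnt5a. The 2 without HIP2 or without WT1 were Wif1 and Wnt11. Wnt11 was also counted without HIP30, HIP3 or WT4, and shares leaving it out were not computed there.

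The 3 HIP libraries lay wholly above the 3 WT libraries in 2 members, Fzd3 and Wnt2b (5.71%), against 6.14% of all genes tested. They lay wholly below in 6 members, Wif1, Wnt11, Dkk3, Fzd1, Axin2 and Wnt7b (17.1%), against 3.86% of all genes tested, and without Wnt11 in 5 of 34 (14.7%). The same 8 members were separated when CPM was rescaled with TMM factors, where 5.27% of genes lay above and 4.27% below, or by median of ratios, where the shares were 4.71% and 4.67%. Over the 35 tested members, 14 log2 differences were positive (40%, beside 51.1% of all genes tested) and 21 negative. The members' median was -0.16, beside 0.0097 over all genes tested. Wnt11 is among the 21 negative members and is kept in this median. Without WT1 the members' median was -0.30.

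**Figure D1:**
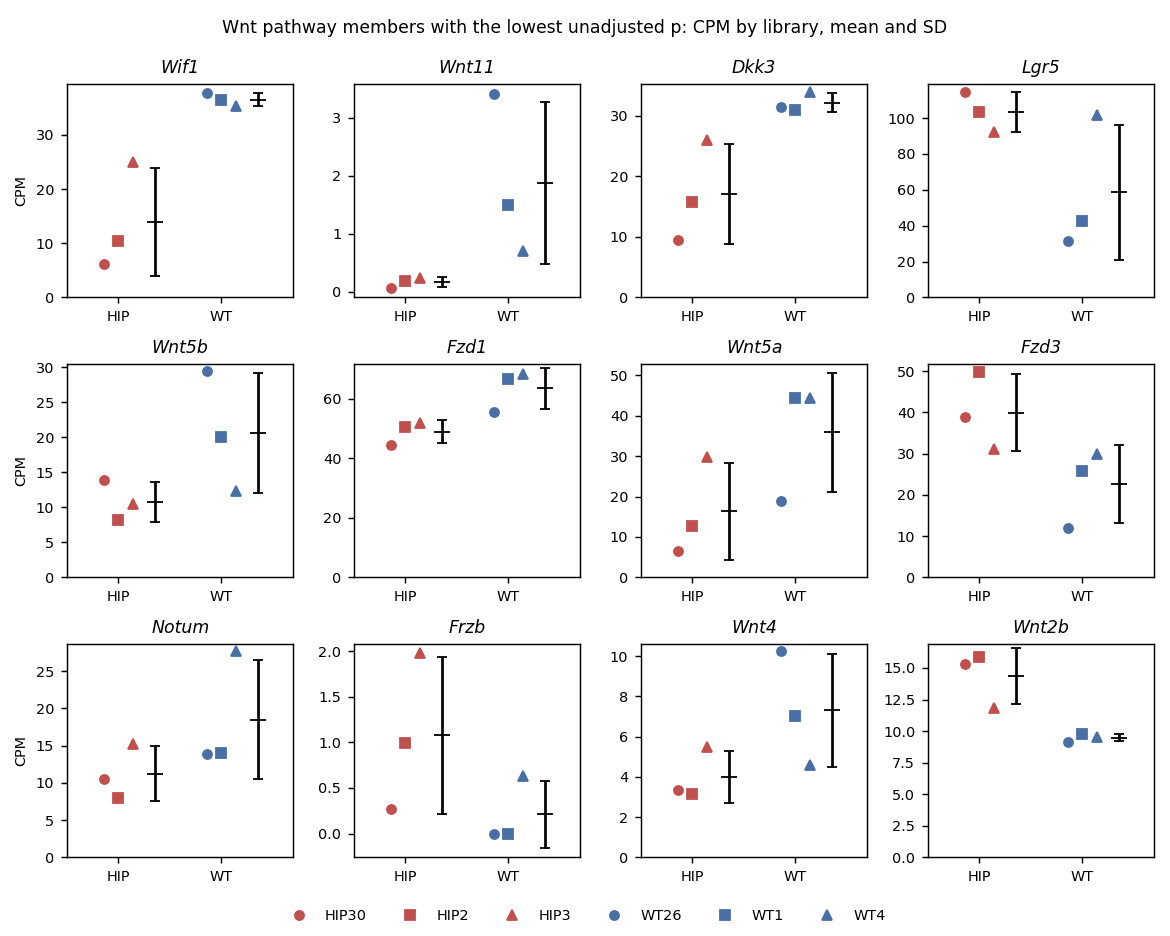
CPM (vertical axes, each from its own scale) of the 12 tested members with the lowest unadjusted p, in 3 HIP libraries (red) and 3 WT libraries (blue); black marks are the mean and SD of each group. In Wif1 the highest HIP library, HIP3 at 25.1 CPM, lies under the lowest WT library at 35.3 CPM, while in Lgr5 WT4 at 102 CPM lies among the HIP libraries.

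Both secretion factors were read in every library. Porcn, the acyltransferase that lipid-modifies Wnt, stood at 43.9, 34.3 and 54.9 CPM in the HIP libraries, against 58.6, 45.1 and 65.3 CPM in the WT libraries. HIP3 lay above WT1, so the groups overlapped, and HIP minus WT in log2 came to -0.43 ± 0.25 (SE; limma, adjusted p = 0.695), or -0.26 without HIP2. Wls, the carrier of Wnt to the surface, stood at 233, 242 and 133 CPM in the HIP libraries, against 155, 181 and 185 CPM in the WT libraries. Here HIP30 and HIP2 were the highest libraries and HIP3 the lowest of all. The log2 difference of Wls was 0.10 with a 95% interval of -0.44 to 0.64, and its sign turned among libraries 1 to 4 and without HIP2.

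Of 17 Wnt genes, 9 were tested, with 6 negative and 3 positive differences and a median of -0.88, beside 0.0097 over all genes. The 6 include Wnt11, which passed the filter on low values through its WT libraries alone, and the median keeps it. Of the ligands known mainly for beta-catenin-independent signalling, Wnt5a, Wnt5b and Wnt11 had lower means in HIP. Wnt5a, the best known of them, stood at 6.54, 12.7 and 29.8 CPM in libraries HIP30, HIP2 and HIP3, against 18.9, 44.2 and 44.4 CPM in libraries WT26, WT1 and WT4. HIP30 and HIP2 were the lowest libraries, but HIP3 lay above WT26. HIP minus WT in log2 came to -1.37 ± 0.59 (SE; limma, adjusted p = 0.691), and it ran over -1.97 to -0.80 with libraries left out in turn, the smallest in size without HIP30.

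Wnt5b, its close relative, stood at 13.9, 8.20 and 10.4 CPM in the HIP libraries, against 29.4, 20.1 and 12.3 CPM in the WT libraries. HIP30 lay above WT4, and the other HIP libraries below every WT library. On the log2 scale HIP minus WT was -0.94 ± 0.41 (SE; limma, unadjusted p = 0.0495, adjusted p = 0.691), and without WT26 it was -0.62. The libraries in which these paralogs were lowest differed, since Wnt5a was lowest in HIP30 and Wnt5b in HIP2.

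Wnt11, which directs cell movement and kidney duct branching in mouse, had 1, 3 and 4 reads in the HIP libraries, against 60, 26 and 11 reads in the WT libraries. The groups did not overlap, although WT4 held only 11 reads. The HIP libraries hold 8 reads in all, so the size of the log2 difference, -2.65 ± 0.83 (SE; limma, adjusted p = 0.691), depends on the pseudocount. It was -1.73 with 8 reads added and -3.19 with 0.5 reads added.

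Wnt4, a ligand of kidney and gonad development, stood at 3.37, 3.17 and 5.51 CPM in the HIP libraries, against 10.2, 7.05 and 4.61 CPM in the WT libraries. HIP3 lay above WT4, and WT26 was the highest library. Its log2 difference stood at -0.89 ± 0.48 (SE; limma, adjusted p = 0.691). Wnt7b, an epithelial ligand of the lung and other branching organs, stood at 5.48, 4.60 and 5.27 CPM in the HIP libraries, against 6.600, 7.85 and 6.57 CPM in the WT libraries. Its groups did not overlap, with a gap between 5.48 CPM in HIP30 and 6.57 CPM in WT4, and the adjusted p was 0.748 by limma. Wnt7a stood at 1.92, 4.47 and 1.56 CPM in the HIP libraries, against 11.7, 2.52 and 2.59 CPM in the WT libraries, where WT26 was far above the rest and HIP2 lay above WT1 and WT4.

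Wnt2b was the ligand with all HIP libraries higher. This ligand acts through beta-catenin and in mouse is needed, with Wnt2, to specify the lung. It stood at 15.3, 15.9 and 11.8 CPM in the HIP libraries, against 9.16, 9.74 and 9.54 CPM in the WT libraries. The WT libraries lay within 0.58 CPM of each other, and HIP3 was the HIP library nearest to them. Group means were 14.4 ± 2.19 CPM in HIP and 9.48 ± 0.296 CPM in WT (SD, n = 3 each). The difference in log2 was 0.51 ± 0.29 (SE; limma, adjusted p = 0.692), and it stayed within 0.42 to 0.60 with libraries left out in turn. Wnt3, a beta-catenin ligand that Paneth cells supply in the mouse intestine, had 31, 49 and 6 reads in the HIP libraries, against 5, 5 and 24 reads in the WT libraries. HIP30, HIP2 and WT4 were the high libraries, and both groups held libraries with 6 reads or fewer. Wnt9a stood at 5.15, 2.30 and 4.85 CPM in the HIP libraries, against 5.52, 4.07 and 1.45 CPM in the WT libraries, with HIP2 and WT4 low.

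The 8 remaining ligands were not tested. Wnt8b had 1 read, in WT4, and Wnt1 had 5 reads, all in WT4. Wnt8a had 5 reads and Wnt16 had 10 reads over all 6 libraries. Wnt10a had 17 of its 18 reads in WT4, and Wnt6 had 33 of its 36 reads in HIP3. Wnt3a and Wnt9b reached 0.506 and 0.885 CPM at most. A count of 0 allows up to 0.180 to 0.198 CPM in the HIP libraries and 0.171 to 0.190 CPM in the WT libraries, for counting error only. Levels under these limits could go without a read at this depth. WT4, which held the reads of Wnt1 and Wnt8b and most of those of Wnt10a, was also the library with the fewest genes without a read, 672.

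**Figure D2:**
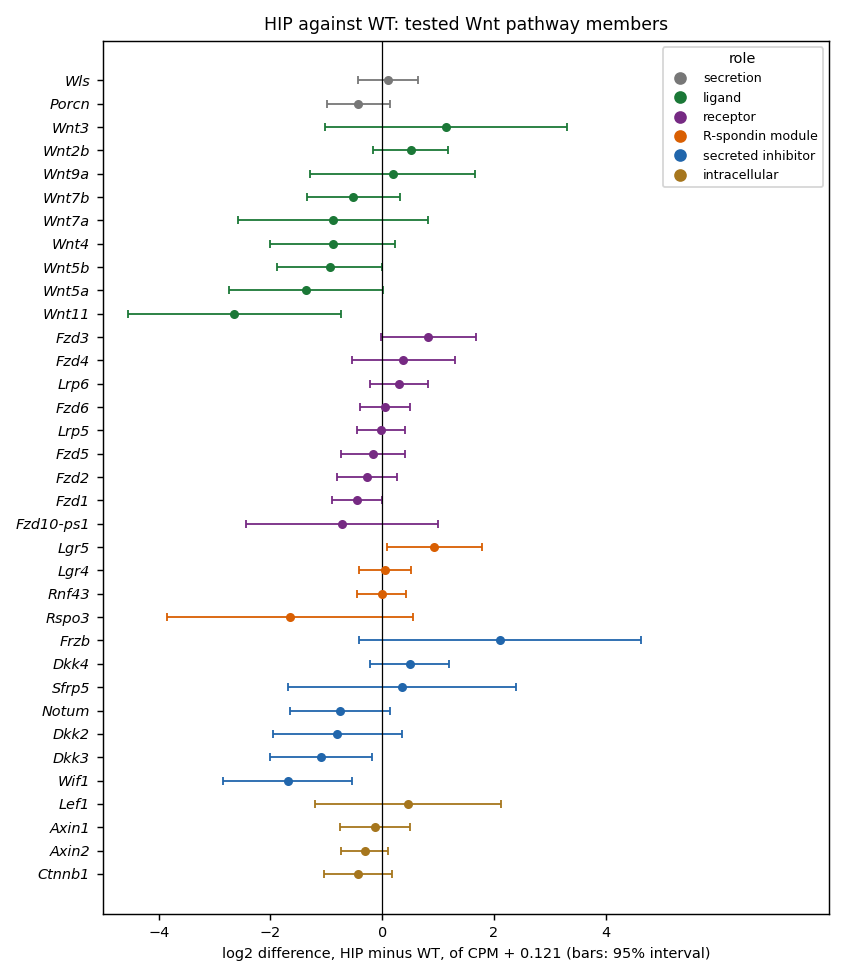
Log2 difference of HIP minus WT (horizontal axis, on CPM plus 0.121) for the 35 tested members, grouped by role, with 95% intervals from limma. The intervals of Wif1, Wnt11, Dkk3 and Wnt5b lie below 0 and that of Lgr5 above it before any adjustment, and those of Lgr4, Rnf43, Lrp5 and Wls centre near 0.

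Among the receptors, 9 of 10 were tested, with 4 positive and 5 negative differences. Fzd3, a receptor of planar polarity and axon guidance in mouse, stood at 38.8, 49.9 and 31.2 CPM in the HIP libraries, against 11.9, 25.9 and 29.8 CPM in the WT libraries. The HIP libraries were all higher, but HIP3 exceeded WT4 by little, and WT26 was far below the rest. HIP minus WT in log2 came to 0.83 ± 0.37 (SE; limma, adjusted p = 0.691). It was 0.44 without WT26, 0.49 among the libraries numbered 1 to 4 and 1.51 between HIP30 and WT26.

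Fzd1 stood at 44.5, 50.6 and 51.9 CPM in the HIP libraries, against 55.8, 66.7 and 68.5 CPM in the WT libraries. All HIP libraries were lower, and its log2 difference stood at -0.45 ± 0.19 (SE; limma, adjusted p = 0.691). Fzd6, which orients hair follicles in mouse, was among the steadiest members, at 118, 117 and 102 CPM in the HIP libraries, against 111, 112 and 86.3 CPM in the WT libraries. Its highest library was 1.36 times its lowest. Fzd4, the receptor of Norrin in retinal vessels, stood at 26.02, 16.7 and 30.6 CPM in the HIP libraries, against 10.8, 16.6 and 28.9 CPM in the WT libraries, and Fzd5, an intestinal Wnt receptor, at 36.3, 28.7 and 24.8 CPM in the HIP libraries, against 26.7, 27.0 and 43.0 CPM in the WT libraries. In both the groups overlapped, as they did in Fzd2, at 25.4, 21.3 and 25.6 CPM in the HIP libraries, against 29.1, 22.6 and 31.7 CPM in the WT libraries. Fzd10-ps1, a symbol listed in GRCr8 as a synonym of Fzd10, reached at most 3.16 CPM, in WT4. Fzd9 had 27 reads in all and was not tested.

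The co-receptors showed no separation. Lrp5 stood at 228, 269.9 and 288 CPM in the HIP libraries, against 227, 261 and 269 CPM in the WT libraries, and its highest library was 1.27 times its lowest. Its log2 difference was -0.024 with a 95% interval of -0.46 to 0.41, and the sign turned with library totals, with the deposited values, among libraries 1 to 4, without HIP30 and without WT1. Lrp6 stood at 305, 380.4 and 281 CPM in the HIP libraries, against 184, 283 and 283 CPM in the WT libraries. WT26 was the low library, and the difference in log2 was 0.31 ± 0.22 (SE; limma, adjusted p = 0.762). Without WT26 it was 0.12, and without HIP2 it was 0.18.

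Lgr5 was the only member with a higher HIP level at an unadjusted p under 0.05. It stood at 114, 103 and 92.2 CPM in libraries HIP30, HIP2 and HIP3, against 31.2, 42.6 and 102 CPM in libraries WT26, WT1 and WT4. WT26 and WT1 were low, and WT4 lay inside the HIP range, so the groups overlapped. Group means were 103 ± 11.1 CPM in HIP and 58.5 ± 37.9 CPM in WT (SD, n = 3 each). On the log2 scale HIP minus WT was 0.93 ± 0.37 (SE; limma, unadjusted p = 0.0358, adjusted p = 0.691). It was 1.37 without WT4 (adjusted p = 0.288) and 0.58 without WT26, which was the lowest value with a library left out. Adjusted p with libraries left out ran from 0.288 to 0.998.

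Other values differed between the same WT libraries. Markers of islet endocrine cells other than beta cells summed to 372, 244 and 59.3 CPM in the HIP libraries, against 10.1, 45.9 and 176 CPM in the WT libraries. Of these 7 genes 3 had a higher mean in HIP, and in WT26 6 of them had no read. Sst alone stood at 267, 175 and 9.93 CPM in the HIP libraries, against 0, 25.8 and 36.4 CPM in the WT libraries. It made up most of the sums of HIP30 and HIP2 but not that of WT4. Gcg, the defining gene of alpha cells, had no read in HIP30, HIP2, WT26 and WT1. The 6 lymphocyte markers used summed to 37.2, 29.2 and 8.20 CPM in the HIP libraries, against 4.95, 10.5 and 32.9 CPM in the WT libraries, and 4 of them had a higher HIP mean. Most of each sum was Cd4 alone, at 33.1, 23.2 and 6.52 CPM in the HIP libraries, against 4.95, 9.80 and 19.8 CPM in the WT libraries. In WT26 5 of the 6 had no read, and Ms4a1 had none in 4 libraries. The 5 beta cell markers found, all with a lower HIP mean, summed to 0, 153 and 4931 CPM in the HIP libraries, against 0, 86.8 and 11742 CPM in the WT libraries. The part of these cells in the Lgr5 values was not tested.

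Lgr4, the other R-spondin receptor measured, stood at 279, 294 and 219.6 CPM in the HIP libraries, against 206, 287 and 234 CPM in the WT libraries. The log2 difference was 0.055 with a 95% interval of -0.41 to 0.52, and its sign turned among libraries 1 to 4 and without HIP2, WT26 or WT4. Rnf43, the ligase that R-spondins and these receptors hold off, stood at 160.4, 149 and 184 CPM in the HIP libraries, against 151, 132 and 194 CPM in the WT libraries. Its log2 difference was -0.0090 with a 95% interval of -0.44 to 0.43, and the sign turned in 6 of 16 alternative settings. Whether the Lgr5 and Lgr4 values differ from each other in this comparison was not tested.

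R-spondin transcripts were few. Rspo3, which stromal cells supply in the mouse intestine, had 5, 27 and 62 reads in the HIP libraries, against 28, 78 and 168 reads in the WT libraries. HIP30 was lowest and WT4 highest, 32.2 times apart in CPM, while HIP3 lay above WT26. Rspo1 had 9, 27 and 5 reads in the HIP libraries, against 2, 8 and 26 reads in the WT libraries, with HIP2 and WT4 the high libraries. Rspo2 had 4 reads each in HIP3 and WT4 and none elsewhere. Only Rspo3 was tested, with an adjusted p of 0.698 by limma.

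Among the secreted inhibitors, Wif1 had the lowest unadjusted p of all 35 tested members. Wif1, which binds Wnt in the extracellular space, stood at 6.21, 10.4 and 25.1 CPM in libraries HIP30, HIP2 and HIP3, against 37.7, 36.5 and 35.3 CPM in libraries WT26, WT1 and WT4. The WT libraries lay within 2.39 CPM of each other, and the HIP libraries were all lower and spread 4.04 times from HIP30 to HIP3. Group means were 13.9 ± 9.90 CPM in HIP and 36.5 ± 1.20 CPM in WT (SD, n = 3 each). Its log2 difference stood at -1.70 ± 0.50 (SE; limma, unadjusted p = 0.00941, adjusted p = 0.691), and with a library left out it ran over -2.28 to -1.19, lowest without HIP3 and highest without HIP30. It was -1.16 among the libraries numbered 1 to 4 and -2.76 between HIP30 and WT26. Without HIP3 the adjusted p of Wif1 was 0.149.

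Dkk3, a divergent Dickkopf relative secreted by stromal and epithelial cells, stood at 9.44, 15.8 and 25.97 CPM in the HIP libraries, against 31.5, 31.0 and 34.0 CPM in the WT libraries. The order of the HIP libraries was that of Wif1, and the WT libraries were again close together. The difference in log2 was -1.10 ± 0.39 (SE; limma, unadjusted p = 0.0238, adjusted p = 0.691). It was -0.69 without HIP30 and -0.69 among the libraries numbered 1 to 4. Dkk2, a modulator of Lrp6, stood at 10.4, 19.7 and 27.9 CPM in the HIP libraries, against 15.8, 38.5 and 43.7 CPM in the WT libraries. HIP30 was lowest here too, but HIP2 and HIP3 lay above WT26. Its adjusted p was 0.712 by limma.

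In Wif1, Dkk3, Dkk2, Wnt5a and Rspo3, a set picked after its values were seen, HIP30 was the lowest and HIP3 the highest HIP library. That holds for 10 of the 35 tested members, and the opposite, HIP30 highest and HIP3 lowest, for 6. The share of all genes tested with either order was not counted, so whether these orders are commoner among members is not known. The fibroblast and stellate sums given above, 734, 992 and 1955 CPM, rose from HIP30 to HIP3 as those 5 members did, and 12 of the 13 markers had a lower mean in HIP. The cell division sums, 107, 518 and 2911 CPM, did so too. Only Mfap5 of the fibroblast list was at 0 anywhere, in WT26 and WT1. In WT26 the 5 members went different ways, since Wif1 and Dkk3 stood there as in WT1 and WT4 while Wnt5a, Dkk2 and Rspo3 stood at their lowest WT level, and the fibroblast sum was also the lowest of WT at 1899 CPM. The 9 myeloid markers, of which 7 had a higher HIP mean, summed to 2669, 2521 and 639 CPM in the HIP libraries, against 427, 623 and 835 CPM in the WT libraries, highest in HIP30 and lowest in HIP3 among HIP. Mpeg1 alone made up 78.5% of the sum in HIP30 and 22.0% in HIP3, and it had no read in WT26. The part of these cells in the 5 members was not tested.

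**Figure D3:**
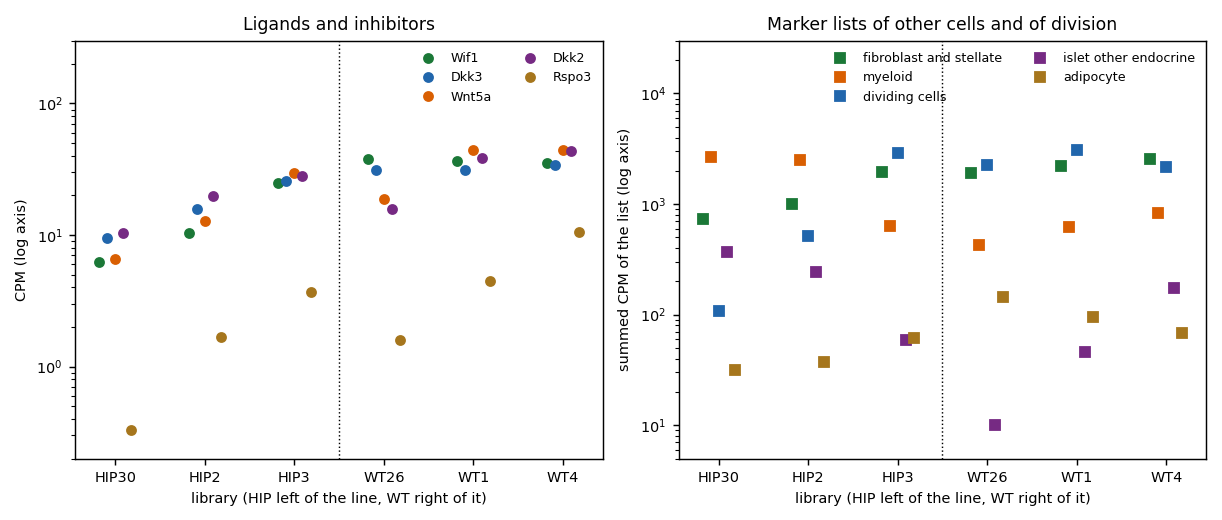
Left, CPM of 5 ligands and inhibitors in each library; right, summed CPM of 5 marker lists in the same libraries (log axes; HIP left of the dotted line, WT right of it; points are offset sideways for clarity). The members on the left are lowest in HIP30, as is the fibroblast and stellate list at 734 CPM, while the myeloid list is highest there at 2669 CPM.

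Dkk4, a Dickkopf that beta-catenin induces in colon cells, stood at 39.0, 22.4 and 24.5 CPM in the HIP libraries, against 23.9, 18.3 and 15.1 CPM in the WT libraries. HIP30 was the high library, and the others overlapped between groups, with an adjusted p of 0.719 by limma. Notum, a secreted lipase that strips the lipid from Wnt, stood at 10.5, 8.01 and 15.3 CPM in the HIP libraries, against 13.8, 13.99 and 27.7 CPM in the WT libraries. WT4 was the high library, HIP3 lay above WT26 and WT1, and HIP minus WT in log2 came to -0.75 ± 0.39 (SE; limma, adjusted p = 0.691). Without WT4 the Notum difference was -0.47. Frzb, a Sfrp relative of cartilage, had 4, 16 and 33 reads in the HIP libraries, against 0, 0 and 10 reads in the WT libraries. It was read in all HIP libraries and in WT4 alone among WT, and the log2 difference of 2.11 had a 95% interval of -0.41 to 4.62. Sfrp5 had 48, 27 and 28 reads in the HIP libraries, against 28, 6 and 87 reads in the WT libraries, highest in WT4 and lowest in WT1. Sfrp2 and Sfrp4, with 7 and 41 reads in all, were not tested.

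Inside the cell, Ctnnb1, which encodes beta-catenin, stood at 330.4, 358 and 396 CPM in the HIP libraries, against 542, 548 and 339 CPM in the WT libraries. WT26 and WT1 were high, and WT4 lay inside the HIP range, so that for this gene too WT4 stood with HIP. HIP minus WT in log2 came to -0.44 ± 0.26 (SE; limma, adjusted p = 0.704), and without WT4 it was -0.72 (adjusted p = 0.293). Axin1, the scaffold of the destruction complex, stood at 80.6, 57.6 and 41.0 CPM in the HIP libraries, against 74.8, 46.5 and 60.5 CPM in the WT libraries, with wide overlap. Lef1, a transcriptional partner of beta-catenin, had 9, 42 and 21 reads in the HIP libraries, against 10, 19 and 15 reads in the WT libraries. Its log2 difference was 0.47 with a 95% interval of -1.20 to 2.13, and it was -0.020 without HIP2, its highest library, and 0.99 without HIP30.

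Axin2, the feedback inhibitor whose promoter is printed above, stood at 48.7, 46.6 and 48.8 CPM in libraries HIP30, HIP2 and HIP3, against 52.6, 50.8 and 68.5 CPM in libraries WT26, WT1 and WT4. The HIP libraries lay within 2.19 CPM of each other and all below WT, where WT4 was the high library. Group means were 48.1 ± 1.24 CPM in HIP and 57.3 ± 9.76 CPM in WT (SD, n = 3 each). On the log2 scale HIP minus WT was -0.31 ± 0.18 (SE), with a 95% interval of -0.74 to 0.11 (limma, adjusted p = 0.700). It was negative with each library left out, over -0.37 to -0.22, and it was -0.32 among the libraries numbered 1 to 4 and -0.30 between HIP30 and WT26.

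**Figure D4:**
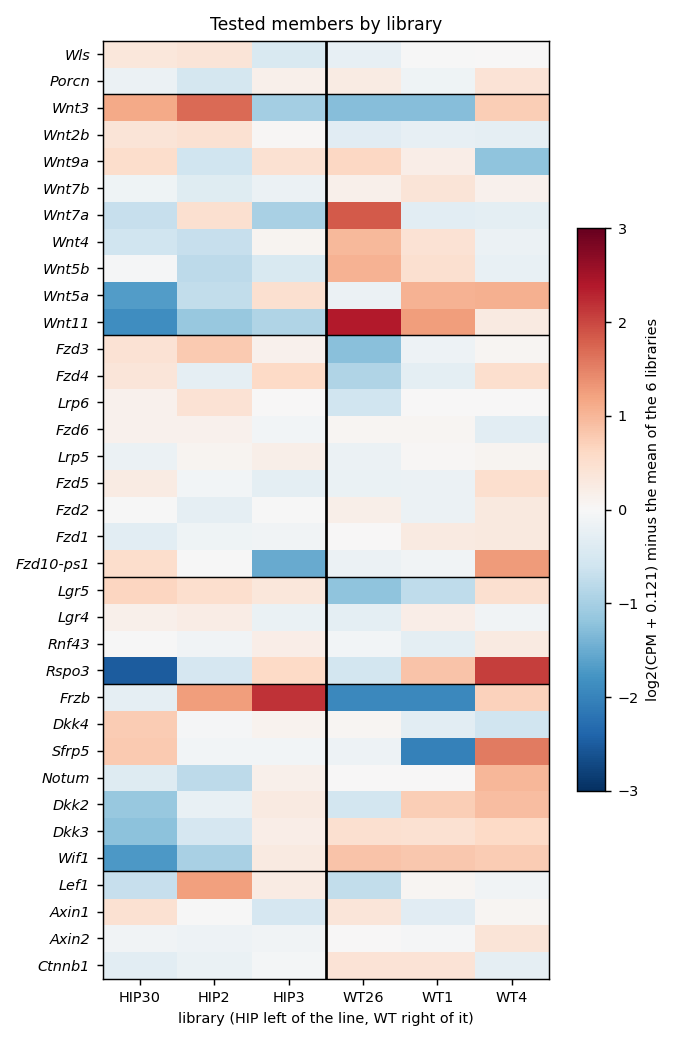
Level of each tested member in each library as log2(CPM + 0.121) minus the mean of the 6 libraries (red higher, blue lower), ordered by role. Wif1, Dkk3 and Wnt11 are blue in HIP30 and HIP2 and red in all WT libraries, whereas WT4 shares the HIP colour for Lgr5 and Ctnnb1.

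Genes named elsewhere in the pathway were read from 5 lists of 75 genes in all, of which 61 were tested. At an unadjusted p under 0.05 limma gave 4 higher and 4 lower, and 0 passed after adjustment. Over all 12102 genes tested 3.29% were higher and 3.26% lower at that limit, and these are the shares to set beside the counts below. Of 14 tested genes of Dishevelled proteins and the destruction complex, 0 came under that limit in either direction. Apc, the complex's tumour suppressor, stood at 334, 446 and 570.3 CPM in the HIP libraries, against 439, 534 and 525 CPM in the WT libraries, and Gsk3b, its kinase, at 178, 210.4 and 212 CPM in the HIP libraries, against 164, 221 and 239 CPM in the WT libraries. Both overlapped between groups. Of 14 tested genes of non-canonical receptors and planar polarity, 0 came under the limit as well. Ror1, a receptor of Wnt5a, stood at 41.4, 33.9 and 22.0 CPM in the HIP libraries, against 16.1, 22.2 and 25.3 CPM in the WT libraries, with HIP3 below WT1 and WT4.

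In the list of transcription factors and co-factors, 8 of 11 tested genes had positive differences, with a median of 0.32, and 3 of them came under the limit. Of all genes tested 51.1% had positive differences. Tcf7l1, which mostly represses Wnt targets, stood at 35.5, 23.2 and 16.6 CPM in the HIP libraries, against 3.02, 6.42 and 20.48 CPM in the WT libraries. HIP30 and HIP2 were the highest libraries, and WT4 lay above HIP3. Its log2 difference stood at 1.61 ± 0.62 (SE; limma, unadjusted p = 0.0329, adjusted p = 0.691). The Groucho co-repressors Tle3 and Tle2 had log2 differences of 0.89 and 1.07 with standard errors of 0.37 and 0.45, and in both WT4 lay above HIP3. Tle3 and Tle2 were picked after their values were seen, as were Apc, Gsk3b and Ror1 above and Sp5, Nkd1 and Ascl2 below.

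In the list of known Wnt targets, 11 of 14 tested genes had negative differences, with a median of -0.43, where 51.1% of all genes tested had positive differences. The 3 positive genes were Smoc2, described below, Sp5 at 1.74 ± 0.96 and Nkd1, the paralog of Nkd2, at 0.46 ± 0.31 (log2, SE). In Sp5 and Nkd1 the groups overlapped. Tnfrsf19, a receptor of intestinal stem cells in mouse, stood at 0, 0.0621 and 0.479 CPM in the HIP libraries, against 1.02, 1.49 and 2.46 CPM in the WT libraries. The groups did not overlap, but it passed the filter on low values through its WT libraries alone. Tnfrsf19 is kept in the 11 negative genes, in the median of -0.43 and in the lower genes counted over all lists. Ephb3, a receptor that positions crypt cells in mouse, stood at 88.0, 65.6 and 77.9 CPM in the HIP libraries, against 123, 99.05 and 92.2 CPM in the WT libraries, a log2 difference of -0.51 ± 0.20 (SE) and no overlap. Nkd2, a Dishevelled-binding feedback inhibitor, stood at 13.6, 20.4 and 36.3 CPM in the HIP libraries, against 39.3, 34.4 and 47.0 CPM in the WT libraries, where HIP3 lay above WT1.

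Smoc2, which marks Lgr5-positive cells of the mouse intestine, stood at 13.1, 9.32 and 3.47 CPM in the HIP libraries, against 1.54, 1.43 and 5.12 CPM in the WT libraries. HIP30 and HIP2 were high and WT26 and WT1 low, with WT4 above HIP3. The difference in log2 was 1.61 ± 0.65 (SE; limma, unadjusted p = 0.0384, adjusted p = 0.691). Ascl2, a transcription factor of the same cells, stood at 26.02, 30.9 and 44.6 CPM in the HIP libraries, against 49.7, 47.2 and 42.8 CPM in the WT libraries, with a difference of the opposite sign, -0.57. In the list of membrane antagonists and modulators, Reck, which in mouse acts with Gpr124 to promote Wnt7a and Wnt7b signalling, stood at 14.5, 24.9 and 25.7 CPM in the HIP libraries, against 28.3, 56.1 and 37.4 CPM in the WT libraries, with all HIP libraries lower, a log2 difference of -0.96 ± 0.37 (SE; limma, adjusted p = 0.691). It was the only 1 of 8 tested genes of its list under the limit.

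**Figure D5:**
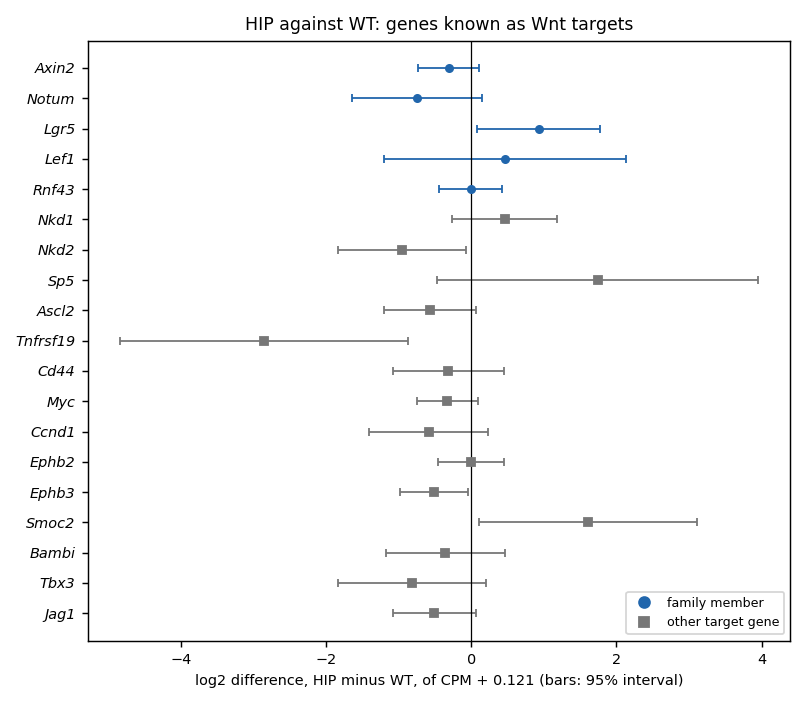
Log2 difference of HIP minus WT (on CPM plus 0.121, with 95% intervals from limma) for 5 members of the family and 14 other genes known as Wnt targets. Before any adjustment the intervals of Lgr5 and Smoc2 lie above 0, and those of Tnfrsf19, Nkd2 and Ephb3 below it. Of the 14 other targets 11 have a negative difference, among them Tnfrsf19, which passed the filter on low values through its WT libraries alone.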

How the data were processed

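The authors deposited 1 table per library with log2 values for 15679 gene symbols. The submitters' processing notes name STAR, HTSeq, edgeR, limma and build rn5; roles, versions and strandedness are not given in the sources used here, so overlapping and antisense genes could not be separated. RNA came from laser-captured tissue through a kit for very small samples and a low-input library kit, per the labels' protocols. The deposited log2 values were read as CPM with a prior: a gene without reads stands at -6.04, and whole reads came out for 100% of values within 0.1 reads. The 4 rows of 2 repeated symbols were left out.

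Groups were compared with limma 3.58.1 (R 4.3.3; trend and two-sided moderated test) after adding 0.121 CPM, worth 2 reads, and taking log2; TMM factors computed here ran from 0.933 to 1.09. Benjamini-Hochberg adjustment ran over the 12102 genes that reached 0.610 CPM, worth 10 reads, in 3 libraries and 15 reads in all. Such fold changes understate the change of low genes. Printed CPM use library totals. The steps were tested on simulated reads.

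1 marker gene of the lists is not reported here and was left out of its sum. Members, lists, tests and alternatives were chosen with earlier results of these data known. Fold changes are printed for the 12 tested members with the lowest unadjusted p and for Lgr4, Lgr5, Rnf43, Axin2, Lef1, Ctnnb1, Wls, Porcn, Lrp5, Lrp6 and Notum. Of the other pathway genes, the 6 with the lowest unadjusted p are named, and the others named were added after their values were seen. Of the 48 members, 47 match a GRCr8 symbol and 1 a synonym. Alternatives covered scaling, filter, pseudocount, limma-voom, the deposited values, a term for the title numbers 26 and 30, which no label calls a batch, libraries 1 to 4 alone, and each library left out. Figures used matplotlib 3.10.9.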

Additional observations from a re-analysis of the deposited data

How the results depend on the processing

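In each of the 16 alternatives 0 members and 0 genes passed after adjustment, and at an unadjusted p under 0.05 limma gave 154 to 1803 genes, limma-voom 914. Of 334 recomputed log2 differences of 21 members, 316 kept their sign and 18 did not, all in Rnf43, Lrp5, Lgr4, Wls and Lef1. With library totals Rnf43 and Lrp5 were 0.065 and 0.050, and with the deposited log2 values 0.065 and 0.050. Among libraries 1 to 4 Lgr4, Rnf43, Wls and Lrp5 were -0.041, 0.040, -0.041 and 0.058. With libraries left out in turn Rnf43 ran from -0.14 to 0.098, Lrp5 from -0.14 to 0.12, Lgr4 from -0.041 to 0.21, Wls from -0.053 to 0.34 and Lef1 from -0.020 to 0.99. Members at an unadjusted p under 0.05 were 10 with a term for the number series (28.6%, beside 7.95% of all genes) and 3 among libraries 1 to 4 (8.57%, beside 1.27%), and 2 to 8 with libraries left out, up to 22.9% beside 14.9% of all genes without HIP3 and 13.3% without WT4. Members without overlap were 16 among libraries 1 to 4 and 10 to 17 with libraries left out, where fewer libraries make separation easier (45.7% beside 23.2% of all genes among libraries 1 to 4, and 48.6% beside 35.4% without HIP3). The members' median ran from -0.30 to -0.14 with libraries left out. These shares and medians keep Wnt11, which passed the filter on low values through its WT libraries alone. The cause of these shifts was not tested. Depth limits ligands under 1 CPM, where a library holds few reads. Detection did not follow depth alone, since WT26 had the most reads and also the most genes without a read, 2822. WT4 had the fewest such genes, 672.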
